A study of Danio rerio with 15 samples.

Results

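The 6 libraries described here came from venous thrombus tissue of zebrafish larvae taken 1 h and 3 h after a laser injury, 3 libraries at each time. They are 6 of the 15 libraries of a study in which every larva, controls included, carried the transgenes Tg (flk1:eGFP; gata1:dsRed), which make endothelium green and erythroid cells red. The endothelium was injured with a laser close behind the anal pore, and the submitters call 1 h the start of the clot and 3 h its peak. The tissue was cut into frozen sections and cells were taken from the sections by laser-capture microdissection. The other 9 libraries were 3 of venous tissue with no injury, 3 of thrombus tissue at 6 h and 3 at 12 h. They entered the fit that estimated the spread between libraries, and they show where the step from 1 h to 3 h lies in the course. The libraries were chosen by their labels alone: the columns named for 3 h were compared with the columns named for 1 h. The labels give no age in days and do not say which larvae went into which library, so more than 1 library may come from the same larva and 1 library may hold several larvae. The tests can then see no more than how far these libraries differ from each other, partly for technical reasons, and their p-values may be too low. The study has no uninjured samples for 1 h or 3 h, so time since injury cannot be told apart from time since handling. Libraries are called by the letter of their column. The 1 h column B carries a letter that no 1 h sample title has, so it is tied to the 1 h group and to no single sample.

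In a fish, as in a mammal, an injured vein is closed by thrombocytes, the nucleated counterpart of platelets, and by fibrin, and red cells are trapped as the clot grows. Damaged tissue switches on immediate early transcription factors of the AP-1 family (Fos, Jun and ATF3 proteins), then cytokines of the JAK-STAT pathway and their SOCS feedback inhibitors, proteases that cut the matrix, and enzymes such as haem oxygenase that deal with spilled haem. Larval tissue also holds dividing cells, which are recognised by the mRNAs of mitosis and of DNA replication, and these are made and destroyed again in each cell cycle.

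The libraries held 12515673 to 14056176 reads, recovered from the steps of the deposited values, and 10953 to 12156 genes were above 0 at 1 h against 12232 to 12620 at 3 h. Levels are FPKM, a fragment count scaled to transcript length and to the mapped reads of the library. For a transcript of 2000 bases, 3 reads correspond to an FPKM of 0.107 to 0.12 in these libraries, a floor that covers counting error only. Pearson correlations across genes were 0.717 to 0.757 within 1 h, 0.763 to 0.798 within 3 h and 0.704 to 0.781 between the times. Muscle transcripts were abundant in the tissue labelled venous: 67 sarcomere genes summed to an FPKM of 127000 to 200000 at 1 h and 135000 to 211000 at 3 h. The 43 endothelial markers summed to 76.1 to 174 at 1 h and 90.3 to 163 at 3 h, and the defining endothelial gene cdh5 (VE-cadherin) lay between 0.189 and 5.14 at 1 h and between 0.212 and 4.2 at 3 h. The neutrophil lysozyme gene lyz was at most 0.397 in the 6 libraries. The macrophage gene MPEG1, summed over 3 copies, was listed at 0 in all but 3 h library B, where it was 0.485. In such bulk tissue, fewer cells of a type and less RNA per cell cannot be told apart.

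Between 1 h and 3 h, 6 genes of mitosis and the replication gene pclaf fell, most of them to near 0. A small set of genes rose, leptin b and the protease gene MMP9 among them. Of 13051 genes tested, 32 passed an adjusted p of 0.05 (limma on log2(FPKM + 1), Benjamini-Hochberg over all genes tested), which is 0.245% of them. Of these, 17 were higher at 3 h (0.13%) and 15 lower (0.115%), and in all 32 the 3 h and 1 h libraries did not overlap. The 32 genes were picked by the difference between these same libraries, so their separation is largely built in. Such separation was found in 806 genes upward (6.18% of those tested) and 713 downward (5.46%). With 3 libraries against 3, exact permutation gives full separation in either direction a probability of 0.1 when nothing differs. At an unadjusted p under 0.05 there were 1461 genes (11.2%). The median log2 difference over all genes tested was 0.00. Among the 17 higher genes, 4 have no symbol or only a clone name and are counted only. Symbols in capitals come from a table of gene names in the human style and stand for the zebrafish gene IDs given beside them. All log2 differences below are 3 h minus 1 h on the log2(FPKM + 1) scale, with the standard error (SE) of the fit and n = 3 per time; this scale understates the change of low genes.

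**Figure D1:**
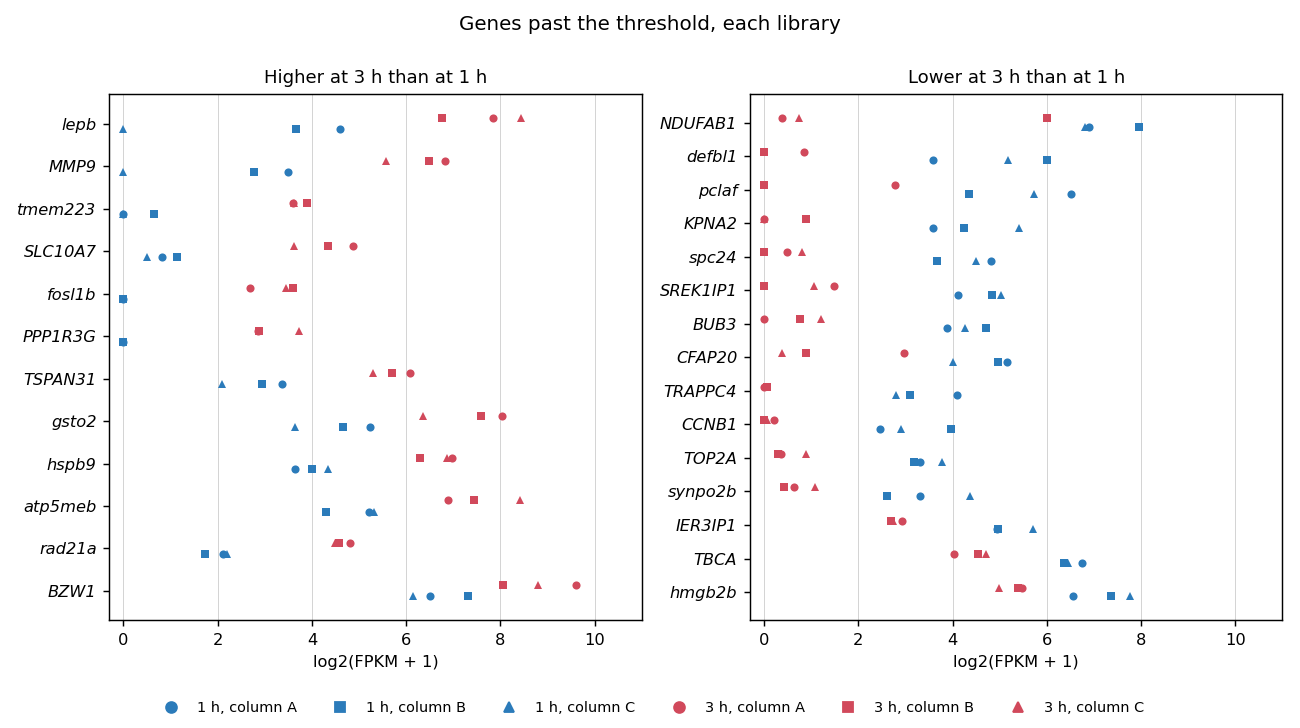
Level of 27 genes past the threshold in the 6 libraries, as log2(FPKM + 1), with 12 genes higher at 3 h on the left and 15 lower on the right. Blue marks are the 1 h libraries, red marks the 3 h libraries, and the shapes are the column letters. In no row do blue and red overlap, and in most of the lower genes the red marks lie close to 0.

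**Figure D2:**
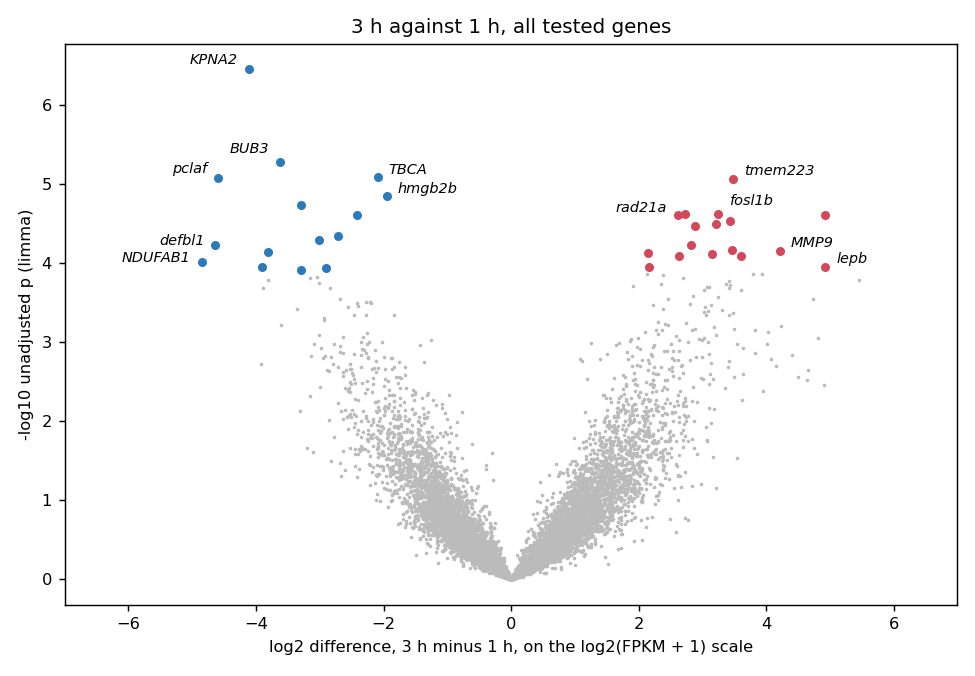
Each point is 1 of the 13051 genes tested, with the log2 difference (3 h minus 1 h) on the x axis and the unadjusted p of limma as -log10 on the y axis. Red points are the 17 genes higher at 3 h and blue points the 15 lower past an adjusted p of 0.05; KPNA2, the top point, stands clear of the rest.

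The gene with the smallest p was KPNA2 (ENSDARG00000038066), an importin alpha that carries proteins into the nucleus and whose mRNA is high in dividing cells. Its FPKM was 11, 17.8 and 41.4 at 1 h (libraries A, B and C) and 0, 0.867 and 0 at 3 h. The 1 h libraries were all well above the 3 h libraries, which were at or near 0. The log2 difference was -4.11 (SE 0.51, adjusted p = 0.00458), and it passed the threshold without any single library of the 6 (adjusted p 0.00262 to 0.0394). BUB3 (ENSDARG00000075883), a part of the spindle checkpoint that holds back chromosome separation, was 13.8, 25.1 and 18.3 at 1 h and 0, 0.7 and 1.31 at 3 h. Its log2 difference was -3.63 (SE 0.56, adjusted p = 0.0222), and it too passed without any single library (adjusted p 0.0123 to 0.049). These were the only 2 of the 32 genes that did so.

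CCNB1 (ENSDARG00000051923) encodes cyclin B1, the partner of CDK1 that drives entry into mitosis. It was 4.54, 14.7 and 6.49 at 1 h and 0.163, 0 and 0.0393 at 3 h, so that all 3 h libraries lay at or near the level of a few reads. It fell by 3.02 on the log2 scale (SE 0.56, adjusted p = 0.0387). TOP2A (ENSDARG00000024488), the topoisomerase that untangles DNA before chromosomes part, was 8.97, 8.05 and 12.7 at 1 h and 0.279, 0.23 and 0.849 at 3 h. Its 1 h libraries stood close together and its 3 h libraries were all below 1, with a log2 difference of -2.91 (SE 0.58, adjusted p = 0.049). The kinetochore gene spc24 (ENSDARG00000093622), whose protein links chromosomes to the spindle, was 27.1, 11.7 and 21.7 at 1 h and 0.393, 0 and 0.757 at 3 h, which gives a log2 difference of -3.90 (SE 0.78, adjusted p = 0.0488). The chromatin protein gene hmgb2b (ENSDARG00000053990) stayed well above 0: it was 93.6, 164 and 217 at 1 h and 43.5, 41 and 30.9 at 3 h. It fell by 1.95 on the log2 scale (SE 0.32, adjusted p = 0.0267). The calls of these 4 genes hung on single libraries. That of hmgb2b was lost without 1 h library C (adjusted p = 0.0655) or 3 h library B (0.0563), and that of spc24 without 1 h library A, 1 h C, 3 h A or 3 h B (0.1 to 0.125). CCNB1 was lost without 1 h library B, 1 h C, 3 h A or 3 h B (adjusted p 0.0655 to 0.076), and TOP2A without any but 3 h library C (0.0594 to 0.137).

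These 6 genes are all members of a list of mitosis genes, of which 56 of 67 found passed the filter on low values. No member was called higher, 6 were called lower (10.7%, against 0.115% of all genes tested) and 50 did not pass. The median log2 difference of the list was -1.27, against 0.00 over all genes. Below 0 were 53 of the 56 values, against 6302 of the 13051 genes tested. In 24 members (42.9%) all 3 h libraries lay below all 1 h libraries, against 5.46% of all genes tested. This and the other lists were chosen with earlier results of these data known, so such shares are no independent support. The 3 members with a value above 0, picked out after the values were seen, were aurka (0.38, adjusted p = 0.91), kif18a (0.50) and cenpn (0.53). The whole list summed to an FPKM of 389 to 703 at 1 h and 86.2 to 101 at 3 h; it was 487 to 551 in the uninjured tissue, 605 to 618 at 6 h and 622 to 1070 at 12 h. The 3 h libraries lay below each of the other 12 libraries in this sum. The called gene hmgb2b alone contributed 93.6 to 217 to it at 1 h and 30.9 to 43.5 at 3 h. The called genes were picked by this difference, so part of the fall in the sum is built in. The mean log2 level of the list, counted from its mean at 1 h, was -1.50, -1.33 and -1.28 in the 3 h libraries and -0.14, -0.28 and 0.42 in the 1 h libraries. No library was needed for this direction, since the median of the list lay between -3.01 and -1.02 under every alternative that gave a value. More genes were detected in the 3 h libraries than in the 1 h libraries, as given above. Of the mitosis members, 4 were at 0 in all 3 h libraries and none was at 0 in all 1 h libraries. The part of detection in the fall of the list was not tested.

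DNA replication genes lay in the same direction with a single call. The called gene, pclaf (ENSDARG00000097691), encodes a small protein that binds the replication clamp PCNA. Its FPKM was 90, 19.3 and 52.1 at 1 h and 5.82, 0 and 0 at 3 h, and the log2 difference was -4.60 (SE 0.73, adjusted p = 0.0222). The lowest 1 h library was above the highest 3 h library; the call was lost without 1 h library A (adjusted p = 0.0547) or 3 h library B (0.0563). Of 57 kept members of 69 found, 1 was called lower (1.75%, against 0.115% of all genes tested) and 56 did not pass. The median was -1.11 and 51 values were below 0. In 23 (40.4%) the 3 h libraries were all below the 1 h libraries, against 5.46% of all genes tested. RNASEH2A, part of the enzyme that removes RNA from DNA, narrowly missed the threshold (log2 difference -2.84, SE 0.60, adjusted p = 0.052) with 7.3, 9.34 and 18.6 at 1 h and 1.07, 1.23 and 0 at 3 h. The primase subunit gene PRIM2 also missed it (-3.02, SE 0.74, adjusted p = 0.104), at 6, 12.2 and 9.38 and then 0, 0.426 and 0.253. So did the cell cycle repressor gene E2F8 (-2.0, SE 0.53, adjusted p = 0.125). The summed FPKM of the list was 336 to 663 at 1 h and 146 to 168 at 3 h, against 220 to 403 in uninjured tissue, 465 to 581 at 6 h and 391 to 647 at 12 h.

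**Figure D3:**
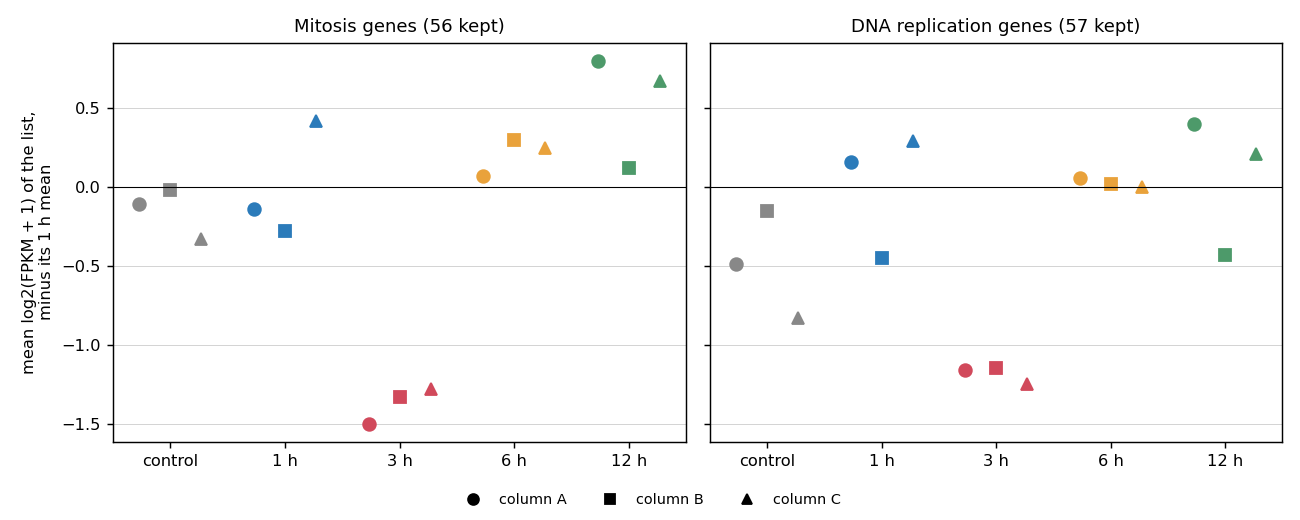
Mean log2(FPKM + 1) of 56 mitosis genes (left) and 57 DNA replication genes (right) in each of the 15 libraries, minus the mean of the 1 h libraries. Points are libraries and shapes the column letters; in both lists the 3 h libraries (-1.50, -1.33 and -1.28, and -1.16, -1.15 and -1.25) lie below all other libraries. At 12 h the mitosis genes stand at 0.80, 0.12 and 0.67.

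Genes that stop the cell cycle held no call. Of all genes tested 0.245% were called, so the lack of a call in this or any list below does not set it apart. None of the 36 kept cell cycle inhibitors and p53 targets (41 found) was called, and their median was 0.31. The inhibitor gene cdkn1a (p21) was 15.7, 12.9 and 5.17 at 1 h and 0, 4.57 and 0 at 3 h, without overlap (log2 difference -2.67, SE 0.88, adjusted p = 0.235). BTG1, a gene of an antiproliferative protein, was 87.1, 97.4 and 94.6 at 1 h and 357, 160 and 170 at 3 h (1.19, SE 0.34, adjusted p = 0.155). The cell death genes pmaip1 (2.05, SE 0.65, adjusted p = 0.217) and BAX (2.42, SE 0.77, adjusted p = 0.219) also missed the threshold. None of these 4 genes had overlapping groups, but they are the members of smallest p, so this is largely built in. Over the list, all 3 h libraries lay above all 1 h libraries in 4 members (11.1%) and below in 5 (13.9%). Over all genes tested the shares were 6.18% and 5.46%.

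Among the largest increases on the log2(FPKM + 1) scale was that of lepb (ENSDARG00000045548), leptin b, a secreted hormone that signals through JAK-STAT and that in zebrafish is known for its induction in injured and regenerating tissue. Its FPKM was 23.3, 11.6 and 0 at 1 h and 228, 108 and 346 at 3 h. The 1 h library C held none, and the lowest 3 h library was above the highest 1 h library. The log2 difference was 4.93 (SE 0.99, adjusted p = 0.0488). The call was lost without 1 h library C, where the log2 difference was 3.55 (adjusted p = 0.0964), and without any 3 h library (0.0628 to 0.138). Its paralog lepa missed the threshold, with 0, 0 and 0.615 at 1 h and 1.24, 14.6 and 13.7 at 3 h (2.77, SE 0.70, adjusted p = 0.109).

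No other gene of cytokine signalling passed. Of 33 kept members of a JAK-STAT list (45 found) lepb was the only one called (3.03%, against 0.245% of all genes tested). The list median was 0.29, and 25 values were above 0 and 8 below. The feedback inhibitor gene SOCS1 was 0, 20.4 and 0 at 1 h and 112, 48.1 and 17.7 at 3 h, overlapping through 1 h library B (4.08, SE 1.09, adjusted p = 0.125). SOCS3, summed over 2 gene copies that can share reads, was 68.3, 98.6 and 62.5 at 1 h and 202, 122 and 133 at 3 h (0.98, SE 0.44, adjusted p = 0.424). The groups did not overlap and all 3 h libraries were above the other 12, yet the difference did not pass. The kinase gene jak2a went the other way (-1.91, SE 0.59, adjusted p = 0.196).

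None of 31 kept cytokine and chemokine genes (75 found) was called, and their median was 0.77. The interleukin gene il1b was 0, 1.34 and 1.1 at 1 h and 5.87, 0.857 and 1.07 at 3 h, and the neutrophil chemokine gene cxcl8a was 0, 7.15 and 6.57 and then 16.9, 4.23 and 4.17. Both overlapped (adjusted p = 0.606 and 0.735). The related cxcl8b.1 overlapped as well, at 29.4, 77.2 and 23.2 and then 42.1, 61.1 and 29.5 (log2 difference 0.17, SE 1.02, adjusted p = 0.991). The SE is wide, so this does not show equal levels. The chemokine gene ccl44 was listed at 0 in the 1 h libraries and was 7.69, 9.04 and 3.33 at 3 h (adjusted p = 0.175). The interleukin gene il11b was 0, 13 and 0.8 and then 14.2, 11.3 and 16.9 (2.35, SE 0.88, adjusted p = 0.309). Its relative il11a did not pass the filter on low values, at 0 in the 1 h libraries and 0.821, 0 and 19.7 at 3 h. The genes tnfa and il6 were listed at 0 in all 6.

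Among immediate early transcription factors, fosl1b (ENSDARG00000079373), a Fos-like AP-1 subunit, was the only call of 39 kept members (47 found). That is 2.56%, against 0.245% of all genes tested. It was listed at 0 in the 1 h libraries and was 5.42, 11.1 and 9.89 at 3 h (adjusted p = 0.0267), with no fold given against a group at 0. The call was lost without 1 h library A, 1 h C or 3 h B (adjusted p 0.0591 to 0.0655). Outside 3 h, fosl1b reached an FPKM of 1 only in 6 h libraries A and B (2.59 and 5.86). It was thus tested only because of its 3 h values, and its call was also lost with no filter on low values. The other AP-1 genes did not pass, and several spread widely at 1 h. FOS was 19.8, 272 and 18 at 1 h and 35.9, 32.9 and 37.6 at 3 h, so the 3 h libraries lay between the 1 h ones (-0.39, SE 0.84, adjusted p = 0.922). Without 1 h library B the log2 difference of FOS was 0.87. FOSL1 was 7.39, 60.6 and 8.58 and then 77.3, 28.3 and 52 (1.54, SE 0.77, adjusted p = 0.477), and ATF3 was 4.79, 62.2 and 8.39 and then 68.7, 20.3 and 31.5 (1.27, SE 0.82, adjusted p = 0.629). In each of these 3 genes the highest 1 h value was that of library B. FOSB stood lower without overlap, at 1.81, 13.9 and 7.04 and then 0.449, 0.0421 and 1.61 (-2.14, SE 0.55, adjusted p = 0.119). GADD45B, summed over 2 copies, overlapped (1.5, SE 0.51, adjusted p = 0.245).

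The 1 h library B stood apart in these lists. The mean log2 level of the immediate early list, counted from the mean at 1 h, was 1.26 in that library against -0.47 and -0.79 in the other 1 h libraries, and 0.78, -0.02 and 0.26 at 3 h. The median of the list was 0.42 with all libraries, 1.11 without 1 h library B and -0.05 without 1 h library C. The neural markers were also highest there among the 1 h libraries, with a mean of 1.65 against -0.66 and -0.99. At 3 h their mean was -0.37, -0.43 and 0.53 in libraries A, B and C. In 12 h library B it was 3.11, yet the immediate early list stood at -1.08 there, against -1.13 and -0.89 in 12 h libraries A and C. The 40 neural members summed to an FPKM of 72.2 to 744 at 1 h and 107 to 263 at 3 h. The part of the neural markers in the immediate early result was not tested.

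Matrix proteases gave 1 call and many members whose groups did not overlap. MMP9 (ENSDARG00000042816), a gelatinase that cuts denatured collagen, was 10.2, 5.87 and 0 at 1 h and 113, 88.3 and 46.5 at 3 h, and the groups lay far apart. On the log2 scale the difference was 4.21 (SE 0.80, adjusted p = 0.041). It was lost without 1 h library C (3.16, adjusted p = 0.0861), 3 h library A (0.137) or 3 h library B (0.0865). The collagenase gene mmp13a was 9.71, 1.97 and 2.14 at 1 h and 40.9, 49.7 and 11.8 at 3 h, without overlap but short of the threshold (2.70, SE 0.86, adjusted p = 0.219). Of 35 kept members (55 found) MMP9 was the only call (2.86%, against 0.245% of all genes tested). The list median was 0.19, and 20 values were above 0. All 3 h libraries were above all 1 h libraries in 11 members (31.4%), against 6.18% of all genes tested, and below in 1.

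Inhibitors of proteases and genes of fibrin dissolving gave no call. SERPINE2, an inhibitor of thrombin and plasminogen activators, was 5.46, 8.79 and 3.16 and then 71.1, 34.6 and 26.9 (2.70, SE 0.56, adjusted p = 0.0519). The cathepsin L gene ctsla, a lysosomal protease, was 138, 162 and 42.5 and then 613, 410 and 324 (2.13, SE 0.43, adjusted p = 0.0512). These 2 genes were the nearest misses of the list of matrix proteases and their inhibitors, whose only call was MMP9. Annexin A2 (ANXA2), a surface receptor for plasminogen and its activator, was 91.3, 136 and 16.7 and then 476, 482 and 88 (2.17, SE 0.68, adjusted p = 0.211), and its partner s100a10b also overlapped (1.97, SE 0.58, adjusted p = 0.17). Of 10 kept anticoagulant and fibrinolysis genes (22 found) none was called; the median was 1.66 and 9 values were above 0.

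Coagulation factors themselves were sparse. Only 8 of 24 found passed the filter, none was called, and the fibrinogen gene fga was listed at 0 in all 15 libraries. The factor V gene f5 was 0.471, 0.0994 and 0 at 1 h and 0.541, 2.81 and 2.23 at 3 h (1.18, SE 0.45, adjusted p = 0.316). The tissue factor gene f3b, the trigger of coagulation, was 7.61, 76.8 and 3.65 and then 31.9, 10.2 and 19, with its highest value again in 1 h library B (0.42, SE 0.95, adjusted p = 0.928). Of 13 kept thrombocyte markers none was called and the median was -0.20. The thromboxane synthase gene TBXAS1 was 0.211, 0.626 and 0 and then 9.84, 4.25 and 2.89 (2.27, SE 0.64, adjusted p = 0.148), whereas the thrombocyte transcription factor gene GFI1B was lower without overlap (-1.35, SE 0.69, adjusted p = 0.493). The platelet integrin gene itga2b did not pass the filter and was at most 1.85 in these libraries. Together the thrombocyte markers summed to 78.4 to 94.1 at 1 h and 78 to 151 at 3 h.

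Most members of the neutrophil list had values above 0, although several of them are also known from other cells, the epidermis among them. Of 16 kept members (24 found) MMP9 was the only call (6.25%, against 0.245% of all genes tested). The list median was 1.38 and 15 values were above 0. In 9 members (56.2%) all 3 h libraries were above all 1 h libraries, against 6.18% of all genes tested. Its most extreme members after MMP9 missed the threshold: scpp8 was 3.98, 0 and 0 at 1 h and 89, 23 and 41.7 at 3 h (4.73, SE 1.04, adjusted p = 0.0631), and nccrp1 was 16.6, 10.9 and 3.54 and then 180, 64.1 and 35.2 (2.94, SE 0.73, adjusted p = 0.109). The oxidase genes that define phagocytes were low: cybb was 5.07, 0 and 0.97 and then 1.59, 2.4 and 0.299, and NCF1 was 3.26, 0 and 0.795 and then 6.68, 0.711 and 3.29. Both overlapped (adjusted p = 1.00 and 0.708), and lyz was near 0 as given above. The list summed to 55.6 to 158 at 1 h and 265 to 625 at 3 h. Epidermis markers were also high in 3 h libraries A and B, but not in 3 h library C. Their mean, counted from the mean at 1 h, was 1.57, 1.27 and -0.63 in 3 h libraries A, B and C. In 1 h libraries A, B and C it was 0.65, 0.41 and -1.06. The neutrophil list stood at 2.15, 1.72 and 1.24 in 3 h libraries A, B and C on the same scale, and at 0.77, -0.43 and -0.34 in the 1 h libraries. The part of the epidermis in these results, MMP9 included, was not tested. None of 37 kept macrophage markers (56 found) was called and their median was 0.31; 13 of them are copies of the tandem family ms4a17a, which can share reads.

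Red cell transcripts lay lower at 3 h with no call. Of 28 kept erythroid genes (31 found) 22 had a value below 0, and the median was -0.91. The haem synthesis gene ALAD was the nearest to the threshold, at 34.3, 22.7 and 11.2 at 1 h and 1.36, 3.28 and 4 at 3 h (-2.56, SE 0.57, adjusted p = 0.0678). Its 3 h libraries were below all other 12. The embryonic globin gene hbae1.2 was 792, 551 and 318 and then 121, 59.6 and 326, overlapping through library C (-1.95, SE 0.86, adjusted p = 0.406), and hbae1.1 was 782, 343 and 785 and then 236, 183 and 653 (-0.97, SE 0.84, adjusted p = 0.749). Globin copies can share reads. The list summed to 4880 to 9080 at 1 h and 1170 to 5710 at 3 h.

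Detoxifying and iron genes gave 1 call, with several members just short of the threshold. The gene gsto2 (ENSDARG00000033285), a glutathione S-transferase of the omega class, was 36.7, 24.2 and 11.5 at 1 h and 261, 192 and 80.7 at 3 h. The groups did not overlap. Its log2 difference was 2.82 (SE 0.53, adjusted p = 0.0406); the call was lost without 1 h library C (2.38, adjusted p = 0.0964), 3 h library A (0.137) or 3 h library B (0.0865). The ferritin-like gene fthl31, of the family that stores iron, was 4.63, 9.95 and 13.2 and then 207, 115 and 131, and missed the threshold (3.94, SE 0.80, adjusted p = 0.0512). So did its relative fthl27 (2.31, SE 0.54, adjusted p = 0.0858) and keap1a, the gene of the oxidative stress sensor that holds NRF2 in check, at 0.0557, 0 and 1.59 and then 34.6, 20.6 and 3.46 (3.43, SE 0.72, adjusted p = 0.052). Ferritin copies can share reads. Haem oxygenase (HMOX1), which breaks haem down, was 61.7, 51.6 and 30.6 at 1 h and 290, 132 and 80 at 3 h. The groups did not overlap, yet the difference did not pass (1.64, SE 0.59, adjusted p = 0.285). In the whole list of 46 kept genes (53 found) gsto2 was the only call (2.17%, against 0.245% of all genes tested) and the median was 0.26.

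A single heat shock gene passed the threshold. The small heat shock protein gene hspb9 (ENSDARG00000078674) was 11.4, 14.9 and 19.2 at 1 h and 125, 77 and 115 at 3 h, and all its 3 h libraries were above the other 12. It rose by 2.72 on the log2 scale (SE 0.47, adjusted p = 0.0267), lost without 1 h library A (adjusted p = 0.0618), 3 h library A (0.0842) or 3 h library B (0.0563). The inducible hsp70l was 10.5, 13.8 and 22.7 and then 22.8, 37.4 and 7.1 (0.29, SE 0.80, adjusted p = 0.948). The muscle chaperone genes UNC45B (-2.03, SE 0.51, adjusted p = 0.109) and hsp90aa1.1 (-1.73, SE 0.50, adjusted p = 0.155), which serve the folding of myosin, were lower without overlap but missed the threshold. The 42 kept heat shock genes (49 found) had a median of 0.03, with 2.38% called against 0.245% of all genes tested. None of the 38 kept genes of the endoplasmic reticulum was called (median 0.04); SDF2L1, a chaperone partner there, was 17.5, 3.67 and 3.31 and then 0, 0.105 and 0.247 (-2.69, SE 0.69, adjusted p = 0.111). None of 45 kept proteasome genes was called either (median -0.17, 30 values below 0).

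The list of glycolysis and hypoxia genes held no call. Of 49 kept glycolysis and hypoxia genes (56 found) 37 had a value above 0, and the median was 0.46. PFKFB3, which makes the activator of phosphofructokinase, was 2.83, 43.6 and 11.6 at 1 h and 81.1, 65.9 and 92.2 at 3 h (2.63, SE 0.75, adjusted p = 0.154), and hif1al was 21.3, 20.4 and 24.7 and then 78.6, 69.8 and 62.1 (1.62, SE 0.46, adjusted p = 0.155). In both genes the 3 h libraries were above all other 12. A glycogen gene did pass: PPP1R3G (ENSDARG00000104576), a subunit that targets protein phosphatase 1 to glycogen, was listed at 0 in the 1 h libraries and was 6.24, 6.29 and 12.3 at 3 h (adjusted p = 0.041). It was the gene whose call fell with every library left out (adjusted p 0.0578 to 0.0861). Outside 3 h, PPP1R3G reached an FPKM of 1 only in 6 h library B (3.62) and 12 h library B (1.41). It was thus tested only because of its 3 h values, and its call was also lost with no filter on low values.

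Mitochondrial genes gave 3 calls that pointed both ways. Called were 2.35% of 85 kept nuclear respiratory chain genes and 1.1% of 91 kept import and assembly genes, against 0.245% of all genes tested. The gene atp5meb (ENSDARG00000068940), subunit e of the membrane part of ATP synthase, was 36.2, 18.8 and 38.7 at 1 h and 117, 172 and 339 at 3 h. It rose by 2.63 (SE 0.51, adjusted p = 0.0411), a call that held only without 3 h library A (adjusted p = 0.0498) and otherwise lay at 0.0655 to 0.0765. NDUFAB1 (ENSDARG00000058463), the acyl carrier protein of mitochondria and a subunit of complex I, was 118, 249 and 111 at 1 h and 0.295, 63.1 and 0.664 at 3 h. The 3 h library B kept an intermediate level and the other 3 h libraries were below 1. The log2 difference was -4.85 (SE 0.96, adjusted p = 0.0466), and it was -6.67 without 3 h library B (adjusted p = 5.43e-07) and -3.85 without 3 h library A (0.152), with 0.074 to 0.0837 without any of the others. The gene tmem223 (ENSDARG00000069494), in humans an inner membrane protein needed to build complex IV, was 0, 0.576 and 0 at 1 h and 11.1, 13.8 and 11.2 at 3 h. The log2 difference was 3.48 (SE 0.55, adjusted p = 0.0222), and it was lost only without 3 h library B (0.0563).

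As lists, mitochondrial genes had medians between -0.33 and 0.00. The 85 kept nuclear respiratory chain genes (91 found) had a median of -0.17 with 61 values below 0, and the 91 kept import and assembly genes (99 found) a median of 0.00. All 13 mRNAs encoded in the mitochondrial genome had values below 0, with a median of -0.33 and no call. MT-CO2, a subunit of complex IV, was 36900, 30800 and 31900 at 1 h and 26600, 25200 and 29300 at 3 h (-0.30, SE 0.12, adjusted p = 0.355). The 79 kept cytosolic ribosomal protein genes had a median of 0.00, 39 above 0 and 40 below.

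Further genes that rose are no members of these lists, the mitosis list included. The cohesin gene rad21a (ENSDARG00000006092), whose protein holds sister chromatids together, was 3.32, 2.33 and 3.56 at 1 h and 26.9, 22.8 and 21.5 at 3 h. Both groups were tight, at a log2 difference of 2.61 (SE 0.46, adjusted p = 0.0267), lost without 3 h library A (0.076) or 3 h library B (0.0591). SLC10A7 (ENSDARG00000104508), a membrane carrier, was 0.761, 1.21 and 0.42 and then 28.4, 19.4 and 11.3 (3.46, SE 0.66, adjusted p = 0.041). The groups did not overlap. The tetraspanin gene TSPAN31 (ENSDARG00000074554) was 9.24, 6.67 and 3.25 and then 66.5, 51.1 and 38 (2.89, SE 0.52, adjusted p = 0.0289). BZW1, a regulator of translation start summed over 2 gene copies (ENSDARG00000010481 and ENSDARG00000099148) that can share reads, was 90, 157 and 69.6 and then 776, 263 and 443 (2.16, SE 0.43, adjusted p = 0.0488). The calls of SLC10A7, TSPAN31 and BZW1 were each lost without 3 h library A (adjusted p 0.107 to 0.169) and without 3 h library B (0.0563 to 0.082). SLC10A7 was also lost without 1 h library A (0.0791) or 1 h C (0.0861), TSPAN31 without 1 h C (0.0837), and BZW1 without 1 h A (0.114), 1 h C (0.125) or 3 h C (0.0578).

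Further called genes that fell are no members of the cell cycle lists and have varied roles. TBCA (ENSDARG00000016754), a chaperone of beta-tubulin, was 106, 81.8 and 86 at 1 h and 15.3, 22.3 and 25.3 at 3 h. Its 3 h libraries were below all other 12, and the log2 difference was -2.09 (SE 0.33, adjusted p = 0.0222), lost only without 3 h library B (0.0542). IER3IP1 (ENSDARG00000039601), a small protein of the endoplasmic reticulum, was 29.9, 30.1 and 51 and then 6.61, 5.5 and 5.64 (-2.42, SE 0.42, adjusted p = 0.0267). TRAPPC4 (ENSDARG00000027418), part of a complex that tethers transport vesicles, was 16.2, 7.5 and 5.92 and then 0, 0.0457 and 0.0428 (-3.29, SE 0.56, adjusted p = 0.0267). Its 3 h values are below the level of 3 reads in a gene of 2000 bases. The gene synpo2b (ENSDARG00000077157), of an actin-binding protein of muscle, was 8.95, 5.11 and 19.8 and then 0.561, 0.338 and 1.11 (-2.72, SE 0.50, adjusted p = 0.0365). IER3IP1, TRAPPC4 and synpo2b were each lost without 3 h library A (0.0534 to 0.0807) or 3 h library B (0.0563 to 0.0757). IER3IP1 was also lost without 1 h library C (0.0768), TRAPPC4 without 1 h A (0.0618), and synpo2b without either of these (0.0861 and 0.0618).

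CFAP20 (ENSDARG00000100514), a protein of cilia, was 34.8, 30.1 and 15.2 at 1 h and 6.83, 0.866 and 0.304 at 3 h (-3.29, SE 0.66, adjusted p = 0.049). It was below the threshold only without 3 h library A, its highest 3 h library (adjusted p = 0.0224), and lay at 0.0655 to 0.126 without any other. SREK1IP1 (ENSDARG00000043728), a partner of a splicing factor, was 16.3, 27.5 and 31.6 and then 1.79, 0 and 1.09 (-3.81, SE 0.73, adjusted p = 0.041), and passed only without 3 h library C (0.0435; 0.0627 to 0.1 without the others). The defensin-like gene defbl1 (ENSDARG00000075161), of an antimicrobial peptide, was 11, 63.5 and 35.1 and then 0.804, 0 and 0 (-4.64, SE 0.87, adjusted p = 0.0406). It passed only without 1 h library A (0.0435; 0.0508 to 0.0861 without the others). It was the only call among 11 kept complement and acute phase genes (9.09%, against 0.245% of all genes tested). The list (51 found) had a median of 0.72. LECT2, summed over 2 copies that can share reads, was 8.22, 0 and 2 and then 71.2, 96.1 and 15.4 (4.01, SE 1.01, adjusted p = 0.109). Of 47 kept genes of nuclear import and export KPNA2 was the only call (2.13%, against 0.245% of all genes tested), with a list median of 0.01.

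Set beside the other groups, most called genes were extreme at 3 h. In 11 of the 17 higher genes the 3 h libraries were above all other 12 libraries, and in 12 of the 15 lower genes below all other 12, a pattern found in 1.26% and 1.23% of all genes tested. The called genes were picked by their 3 h and 1 h values and already separated those times, so part of this is built in. PPP1R3G and a gene with no symbol, both among the 11, passed the filter on low values only because of their 3 h values. Of the 806 genes with all 3 h libraries above all 1 h libraries, 165 were above all other 12. Of the 713 with all 3 h libraries below, 160 were below all other 12. For lepb the other values were 0 in the 3 uninjured libraries, 6.8, 0 and 0 at 6 h and 0 in the 3 libraries at 12 h. For hspb9 they were 2.14 to 5.42 in uninjured tissue, 4.18 to 10.4 at 6 h and 6.42 to 7.79 at 12 h. KPNA2 was 28.1 to 45.4 in uninjured tissue, 31.5 to 45.3 at 6 h and 47.6 to 91.1 at 12 h; none of these libraries came near the 3 h level. By contrast, tmem223 was 8.57, 19.4 and 7.83 in uninjured tissue, 8.88 to 16.4 at 6 h and 6.54 to 21.3 at 12 h, and was near 0 at 1 h alone. The gene rad21a was also lowest at 1 h, though not near 0 (2.33 to 3.56), with 19.4 to 20.8 in uninjured tissue. At 6 h it was 8.86, 22.4 and 12.7, and at 12 h 19.8 to 42.1. For these 2 genes 1 h was lower than the control (a comparison with calls in 0.222% of genes tested; tmem223 log2 difference -3.36, adjusted p = 0.0138; rad21a -2.38, 0.0413), and 3 h against control, with calls in 1.39% of genes, gave 0.11 and 0.23 (adjusted p = 0.958 and 0.872). These comparisons share the 1 h or 3 h libraries with the main one. SLC10A7 moved back and forth, with 2.59 to 10.7 in uninjured tissue, 0.521 to 2.67 at 6 h and 6.49 to 35.1 at 12 h.

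**Figure D4:**
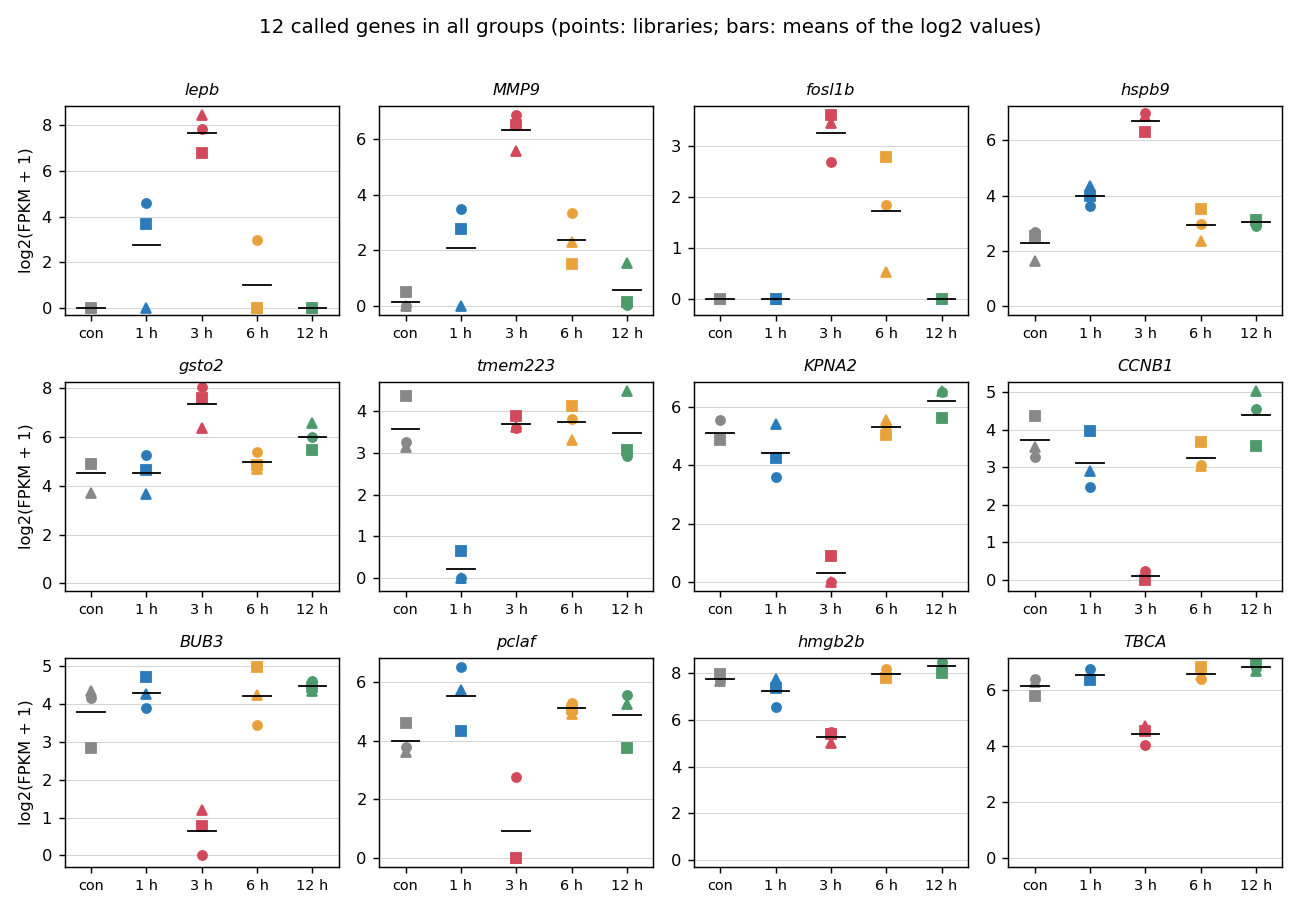
Level of 12 called genes, as log2(FPKM + 1), in the uninjured control (con) and at 1, 3, 6 and 12 h after injury. Points are the 3 libraries of a group, shapes their column letters and bars the means of the log2 values. Most genes peak or dip at 3 h and return, whereas tmem223 is low at 1 h only and close to the control at 3 h.

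The lists of muscle genes gave no call, and the called muscle gene synpo2b, given above, is a member of neither. None of 67 kept sarcomere genes (81 found) was called, with a median of 0.05. Of 47 kept muscle stress and atrophy genes none was called. The titin cap gene tcap was 180, 825 and 415 at 1 h and 1530, 1510 and 1700 at 3 h, without overlap (1.99, SE 0.79, adjusted p = 0.34). The NAD salvage gene nmrk2 (ENSDARG00000067848) was lower, at 215, 658 and 287 and then 111, 61.4 and 95.2 (-1.98, SE 0.57, adjusted p = 0.157). A second gene of that name, NMRK2 (ENSDARG00000101844), overlapped, at 403, 210 and 341 and then 275, 234 and 270 (-0.24, SE 0.27, adjusted p = 0.816). ANKRD1, a stretch-response gene summed over 2 copies, was lower (-2.28, SE 0.51, adjusted p = 0.0658). The Polycomb gene cbx7a was 38.3, 42.1 and 45.4 and then 231, 174 and 115, above all other 12 libraries at 3 h, yet missed the threshold (1.97, SE 0.54, adjusted p = 0.133).

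Lists of the other tissues and of clock and hormone targets held no call. The 50 kept epidermis markers had a median of 0.74, with their highest member cldnb at 49.9, 424 and 5.71 at 1 h and 1210, 453 and 374 at 3 h (3.49, SE 1.00, adjusted p = 0.154). The 25 kept glucocorticoid response genes had a median of 0.76; the kinase gene sgk1 was 2.72, 1.04 and 0.93 and then 39, 7.46 and 26.5 (3.10, SE 0.81, adjusted p = 0.121). Of 31 clock genes the nearest to the threshold was PER1, summed over 2 copies. It was 4.09, 17.1 and 4.05 and then 1.28, 2.4 and 3.53 (-1.24, SE 0.61, adjusted p = 0.462). BHLHE40 overlapped (-0.63, SE 0.63, adjusted p = 0.782). Medians were -0.16 for 43 endothelial, -0.14 for 40 neural, -0.13 for 29 notochord, cartilage and bone, 0.15 for 48 fibroblast and fin fold, 0.23 for 27 integrin and laminin, and 0.34 for 35 NF-kappaB and interferon genes. Under the alternatives the neural median ran from -0.70 to 0.70, the notochord, cartilage and bone median from -0.69 to 0.56, the endothelial from -0.32 to 0.02, the fibroblast from -0.11 to 0.38 and the integrin and laminin from -0.12 to 0.43. The endothelial genes DAB2 (1.67, SE 0.63, adjusted p = 0.315), cdh5 (0.39, SE 0.76, adjusted p = 0.906) and kdrl (0.90, SE 0.71, adjusted p = 0.722) did not pass. The bone gene runx2b was listed at 0 in the 1 h libraries and was 3.32, 4.42 and 6.08 at 3 h (adjusted p = 0.0631). Outside 3 h it reached an FPKM of 1 only in uninjured library B (2.08) and 12 h library A (1.94), so it was tested only because of its 3 h values.

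**Figure D5:**
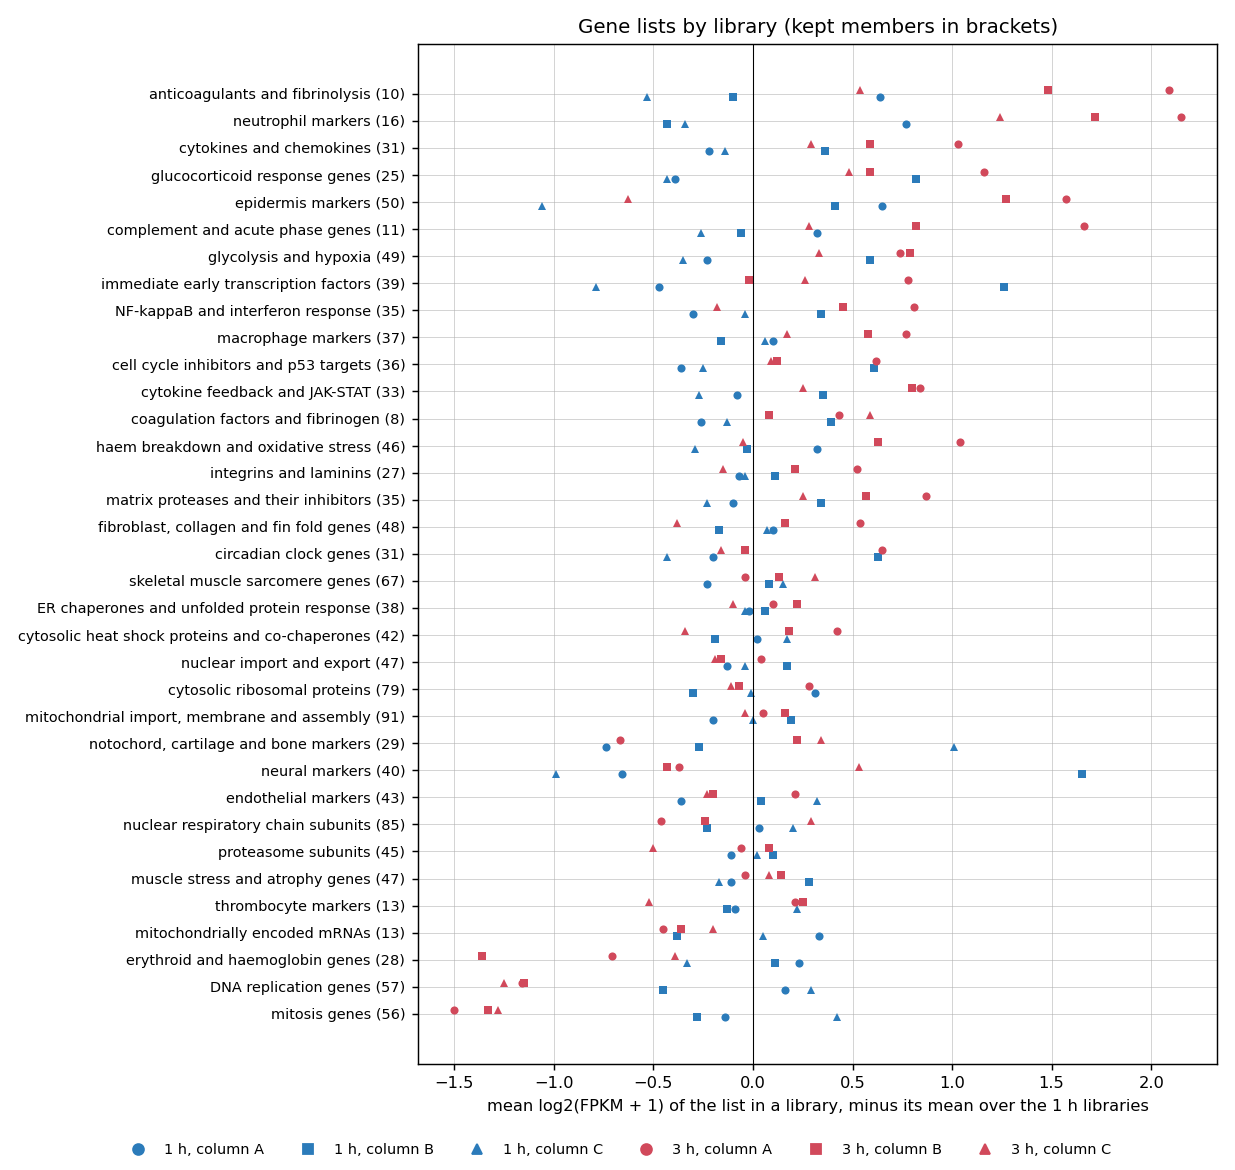
Each row is a gene list, with the number of kept members in brackets, ordered by the median log2 difference; the x axis is the mean log2(FPKM + 1) of the list in a library minus its mean over the 1 h libraries. Blue marks are 1 h and red marks 3 h libraries, shapes the column letters. Mitosis (-1.50 to -1.28 at 3 h) and DNA replication genes (-1.25 to -1.15) stand at the bottom with little spread at 3 h, the erythroid genes above them spread from -1.36 to -0.39, and for epidermis and neural markers single libraries spread as far as the groups differ.

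Just outside the threshold, the genes of smallest p were ctsla, fthl31, oaz2b (an inhibitor of polyamine synthesis), MID1IP1 (a regulator of fat synthesis) and SERPINE2 upward, with adjusted p of 0.0512 to 0.0519. Downward they were ftr86, 2 genes with clone names, FRMD5 and GNG2, with adjusted p of 0.0519 to 0.052. For oaz2b the FPKM was 0, 6.57 and 0 at 1 h and 27.1, 27.6 and 23.8 at 3 h (log2 difference 3.79, SE 0.77). GNG2, a G protein gamma subunit, was 48.5, 21.3 and 25.2 and then 0, 7.83 and 0 (-3.89, SE 0.83). Which genes lie on which side of the threshold is thus a matter of small differences in p. The count of calls depended on the libraries in the fit: with only the 6 libraries compared, limma called 0 genes, with 905 at an unadjusted p under 0.05, and without the 12 h libraries 2 genes passed. With another method, voom on the recovered reads of all 15 libraries, 73 of 13706 gene IDs tested were called, of which 10 were among the 32.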

How the data were processed

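RNA sequencing libraries from 15 zebrafish samples in 5 groups of 3 were used. Per the labels' protocols and the submitters' processing notes, the authors sequenced paired ends on a HiSeq 4000, aligned with HISAT to GRCz11 (Ensembl release 106) and computed FPKM with StringTie and edgeR. Tool versions and strand use are not given in the labels. In the deposited table are FPKM values for 32520 gene IDs. A table of gene names gave symbols for 29201 of them, and the values of IDs with the same symbol were added up (28103 genes). Further columns of the table, 3 in number and named for 5 h, match no sample and were not used. The filter kept the 13051 genes that reached an FPKM of 1 in 3 or more libraries, of which 1280 sum more than 1 ID. A gene can pass it because of 1 group. Without their 3 h values fosl1b, PPP1R3G, lepa, f5 and runx2b, among others, would not have been tested, nor FOSB without its 1 h values.

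The log2 values, with a pseudocount of 1, went into limma 3.58.1 (R 4.3.3, eBayes with a trend), all 15 libraries in 1 fit, contrast 3 h minus 1 h, two-sided, Benjamini-Hochberg over kept genes, threshold 0.05. The scripts were tested on simulated data. Whole reads were recovered from the FPKM steps for all 20690 IDs above 0 in at least 2 libraries (within 0.001 reads), 12486844 to 15651535 per library, which set the precision of low values; voom on them was an alternative. Genes named are all called genes with a symbol that is no clone name, 31 fixed genes, up to 4 members of smallest p from each of 35 lists, and the 5 nearest misses each way. Some genes that these rules take are not reported here; the counts include them. The members and lists were chosen with earlier results of these data known. After the list values had been seen, 16 genes that name matching had taken wrongly were removed from the lists. Letters shared by libraries were not used as pairs. Alternatives were other scalings, filters, pseudocounts, weights, sets of libraries and leaving out each library.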

Additional observations from a re-analysis of the deposited data

How the results depend on the processing

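With the settings of the report 32 genes were called, 17 higher and 15 lower. With median ratio scaling it was 67 (44 and 23; 65.7% higher against 53.1%), with the median of all genes shifted by 0.03; with quantile normalization 34 (19 and 15); with a pseudocount of 0.1, 27 (13 and 14); with no filter 18 (8 and 10). Array quality weights left 2 (0 and 2), the 6 libraries alone 0 (0 and 0), the fit without the 12 h libraries 2 (1 and 1) and the fit without the control libraries 8 (3 and 5). With 1 value per gene ID it was 28 (16 and 12). With voom on recovered reads it was 73 (50 and 23), 10 of them among the 32, and the median of all genes shifted by 0.08. The submitters' threshold, applied to the main limma fit, gave 1419 (790 and 629). It takes an unadjusted p under 0.05 with a log2 difference beyond 1 in either direction. It does not correct for the number of genes tested, so its count cannot be compared with the others. Leaving out single libraries gave 7 to 88 calls, 1 to 57 higher and 6 to 31 lower, fewest without 3 h library B and most without 3 h library C; without 1 h library B it was 54 (38 and 16). A replicate block on the letters of the sample titles, with 1 h column B in its own block, gave 26 (15 and 11). All 26 were among the 32. Of 26 same-letter pairs over all groups, 1 correlated above 0.1 in its deviations from the group means. The 1 h and 3 h groups share only A (r = 0.0556) and C (0.0681). Such correlations cannot show whether libraries with the same letter share larvae or a batch, and the labels do not say. The cause of these differences in count was not tested. KPNA2 passed under every alternative but the 6 libraries alone, and no called gene changed direction under any. Among genes that missed the threshold, the log2 difference of FOS was 0.87 without 1 h library B, and the signs of cxcl8b.1, hsp70l, cdh5, pros1 and f3b also turned without single libraries. Low values limit what can be read: at these depths a level under about 0.12 FPKM rests on a few reads in a transcript of 2000 bases. For shorter transcripts this level lies higher, and for longer ones lower.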
